A study of Arabidopsis thaliana with 18 samples.

Results

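The 7 genes described here are the 5 PDF1 defensins of Arabidopsis whose names run from PDF1.1 to PDF1.3 and the transcription factors ORA59 and ERF1. They were taken by locus identifier from a table of 33039 genes and 18 samples: ORA59 (AT1G06160), ERF1 (AT3G23240), PDF1.1 (AT1G75830), PDF1.2 (AT5G44420), PDF1.2b (AT2G26020), PDF1.2c (AT5G44430), and PDF1.3 (AT2G26010). Of them, 6 reached at least 1 TPM (a share of all transcripts in the sample, corrected for gene length) in at least 3 samples and were tested among 20044 genes, whereas PDF1.1 did not and was not tested.

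The samples were aboveground parts of wild-type Col-0 seedlings. Plants of 9 days were moved to plates of PNM, a cocultivation medium, with *Serendipita indica* (Si) or without the fungus (CK), kept at 22, 25, or 28°C with equal day and night, and harvested 7 days post inoculation (dpi). The 6 groups were CK and Si at each temperature with 3 samples each. *S. indica* is a beneficial fungus that lives in roots, so that the shoots measured here report on the plant at a distance from the fungus. The question was how the shoot response to the fungus changes with ambient temperature. Whether several seedlings were pooled for a sample, and whether the replicates came from separate plates, is not given in the sources at hand, so p-values measure only the spread between these samples.

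In Arabidopsis, jasmonic acid (JA) and ethylene (ET) act together on the ERF branch of JA signaling. In this branch the transcription factors ORA59 and ERF1 bind the GCC box, a short DNA motif, in front of defence genes. A competing branch under MYC2 drives wound and insect responses. PDF1 genes encode small secreted plant defensins rich in cysteine that act against fungi, and PDF1.2 is the customary marker of the ERF branch.

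The defensins that carried the results sit in tandem at separate loci of the TAIR10 genome. PDF1.3 (chr2:11087280-11088001, plus strand) lies next to PDF1.2b (chr2:11089123-11089805, plus strand), with 1121 bases and no other protein-coding gene between them. PDF1.2 (chr5:17906968-17907638, minus strand) lies next to PDF1.2c (chr5:17908850-17909507, minus strand) in the same way, with 1211 bases between them. PDF1.1 stands alone (chr1:28472357-28472898, plus strand). All 5 defensin genes have 2 exons and 1 intron, whereas ORA59 (chr1:1882907-1883992, plus strand) and ERF1 (chr3:8295617-8296604, plus strand) have no intron. The coding sequences of the 4 measurable defensins, 243 bases each and read from the RefSeq TAIR10.1 assembly, are shown to make clear how alike the copies are, and capitals mark the bases that differ from PDF1.2.
PDF1.2: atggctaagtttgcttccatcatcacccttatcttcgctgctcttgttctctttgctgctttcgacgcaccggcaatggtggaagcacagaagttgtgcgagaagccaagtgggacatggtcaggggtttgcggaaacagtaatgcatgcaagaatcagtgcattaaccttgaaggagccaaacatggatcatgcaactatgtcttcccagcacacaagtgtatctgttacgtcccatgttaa
PDF1.2c: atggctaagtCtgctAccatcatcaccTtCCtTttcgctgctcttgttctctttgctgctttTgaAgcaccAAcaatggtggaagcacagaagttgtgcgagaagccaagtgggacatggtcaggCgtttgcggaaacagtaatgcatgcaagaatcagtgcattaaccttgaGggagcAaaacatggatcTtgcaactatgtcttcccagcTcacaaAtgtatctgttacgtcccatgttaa
PDF1.2b: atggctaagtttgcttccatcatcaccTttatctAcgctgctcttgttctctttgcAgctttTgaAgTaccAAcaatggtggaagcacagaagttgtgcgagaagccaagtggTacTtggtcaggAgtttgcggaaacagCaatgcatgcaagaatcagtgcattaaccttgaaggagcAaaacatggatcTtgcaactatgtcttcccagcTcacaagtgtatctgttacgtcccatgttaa
PDF1.3: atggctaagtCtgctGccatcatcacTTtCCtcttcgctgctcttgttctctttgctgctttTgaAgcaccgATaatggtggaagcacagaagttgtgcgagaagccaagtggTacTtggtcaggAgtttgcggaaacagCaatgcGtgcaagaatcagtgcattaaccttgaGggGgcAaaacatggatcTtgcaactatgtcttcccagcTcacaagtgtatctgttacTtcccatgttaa

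Against PDF1.2, the coding sequence of PDF1.2b differed at 15 bases, that of PDF1.2c at 16, and that of PDF1.3 at 21. Similarity in the coding part did not follow the loci. PDF1.2c was closest to PDF1.3 (94.7% identical bases), on the other chromosome, and not to its tandem neighbour PDF1.2 (93.4%). The whole transcripts differed more, with 68.4 to 74.9% identity among these 4 genes. The longest run of identical bases was 72 between the PDF1.2b and PDF1.3 transcripts and 52 between those of PDF1.2 and PDF1.2c, and it was 45 or fewer for the other pairs. No run of 100 bases was shared by any pair of the 5 defensins, and 95 to 100% of the runs of 50 bases of each were its own. Neither read length nor the handling of reads that match more than 1 copy is stated, so a small exchange of reads within a tandem pair cannot be told apart from its own signal.

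The GCC box was searched as the letters GCCGCC on both strands from 250 bases before to 50 bases after each annotated start. ORA59, PDF1.2, and PDF1.2b held a single match, with the first base 230, 222, and 143 bases before the start. ERF1, PDF1.1, PDF1.2c, and PDF1.3 held none, and none appeared when the window was extended to 500 bases before the start. Among 27443 protein-coding genes, 2.57% had the letters in the shorter window and 4.81% in the longer. The G-box, searched as CACGTG, was found only in ORA59, 194 bases before its start and not overlapping the other match, compared with 7.68% of all genes. The 60 bases around each match are shown with the letters in capitals, and for PDF1.2c and PDF1.3 the 60 bases that align with those of PDF1.2 are shown instead.
ORA59, chr1:1882653-1882712 (+ strand): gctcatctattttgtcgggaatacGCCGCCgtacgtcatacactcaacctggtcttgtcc
PDF1.2, chr5:17907825-17907884 (- strand): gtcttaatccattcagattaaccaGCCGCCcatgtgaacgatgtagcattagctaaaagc
PDF1.2b, chr2:11088956-11089015 (+ strand): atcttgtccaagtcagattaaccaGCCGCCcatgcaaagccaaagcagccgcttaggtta
PDF1.2c, chr5:17909776-17909835 (- strand): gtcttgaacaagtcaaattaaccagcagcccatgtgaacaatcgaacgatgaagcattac
PDF1.3, chr2:11087071-11087130 (+ strand): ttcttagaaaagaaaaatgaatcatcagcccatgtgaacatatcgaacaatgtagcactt

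Counted from 1 at the first base of GCCGCC, the aligned stretch of PDF1.2c had 1 substitution, C3A, and that of PDF1.3 had 2, G1T and C3A. The longest run of identical bases in the 500 bases before the starts was 38, between PDF1.2c and PDF1.3. PDF1.2 and PDF1.2b followed with 28 bases. A gapped alignment of the 250 bases before the starts gave 58.0% identity for PDF1.2b and PDF1.3 and 35.3 to 47.9% for the other pairs of these 4 genes, so that the order of likeness upstream depended on the measure.

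The samples had the RNA of shoots. The summed level of 7 leaf markers, such as Rubisco small subunit and chlorophyll a/b binding protein genes, ran from 32313.67 to 56470.91 TPM and was lowest in Si at 28°C. That of 8 root markers ran from 2.55 to 9.84 TPM and was highest in CK at 28°C (7.0 to 9.84 TPM). The endodermis genes CASP1 and ESB1 made up most of it, while the root hair genes EXPA7, EXPA18, COBL9, and LRX1 stayed at or under 0.39 TPM. Of 4 seed markers, CRU3 and OLE1 were listed at 0 in all 18 samples, while SESA1 reached 0.1 TPM and CRA1 1.28 TPM. TPM keeps no record of depth, so the reads behind a value are unknown. Over all genes tested, the median change between Si and CK was 0.26 (22°C), 0.26 (25°C), and 0.22 (28°C) on the log2 scale, and the changes of the members are to be read against this shift. In bulk tissue, fewer cells of a type and less RNA per cell cannot be told apart.

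Fungal treatment went with higher levels of ORA59 and of the 4 measurable defensins, whereas ERF1 was not called at any temperature. The spread was pooled over the 6 groups, so that a gene has the same SE for Si against CK at each temperature. A gene was called when its adjusted p in limma (Benjamini-Hochberg) was at most 0.05 and its log2 fold change on the log2(TPM + 1) scale above 1 in size. On this rule 5 of the 6 tested members were called higher in Si than CK at 22°C, 5 at 25°C, and 4 at 28°C. None was called lower in limma, and none had an unadjusted p under 0.05 in that direction. Of all genes tested, 8.0, 9.43, and 7.95% were called higher and 1.34, 2.69, and 1.72% lower. With median-of-ratios scaling these shares moved to 4.93, 5.72, and 5.17% higher and 2.51, 4.22, and 2.65% lower.

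**Figure D1:**
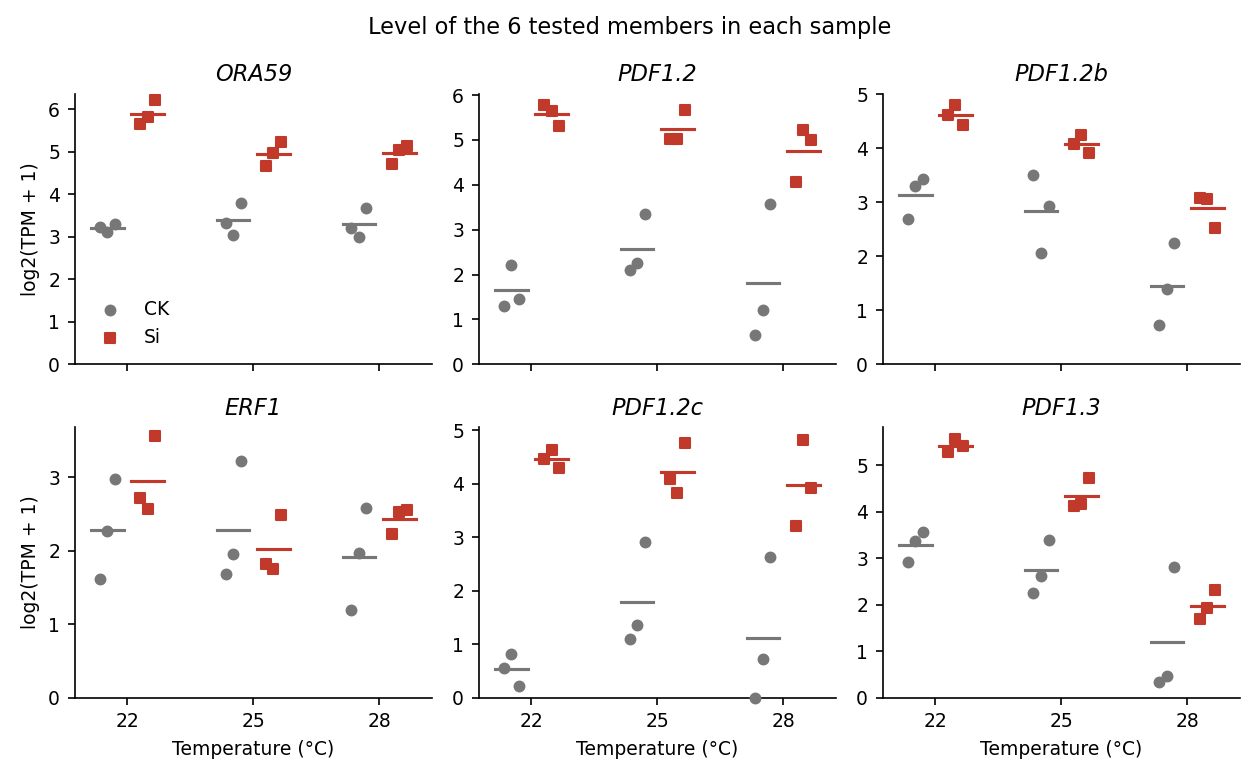
Levels of the 6 tested members as log2(TPM + 1) in each of the 18 samples, against temperature. Grey circles are CK samples, red squares Si samples, and bars the group means of 3 samples. The Si squares of ORA59, PDF1.2, PDF1.2c, and PDF1.2b lie above the CK circles of the same temperature, the circles and squares of ERF1 overlap at each temperature, and those of PDF1.3 overlap at 28°C.

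ORA59, the ERF that joins the JA and ET signals, was the most precisely measured of these genes. In CK samples the level was 8.39, 7.69, and 8.79 TPM (22°C), 9.05, 7.24, and 12.81 TPM (25°C), or 8.26, 6.98, and 11.85 TPM (28°C). In Si samples the level was 49.57, 55.51, and 72.90 TPM (22°C), 24.51, 30.41, and 36.18 TPM (25°C), or 25.30, 31.89, and 33.95 TPM (28°C). Each Si sample thus exceeded each CK sample of any temperature, and the 22°C Si samples exceeded all other Si samples. The log2 fold change of Si against CK was 2.68 ± 0.21 (SE, n = 3 per group, adjusted p in limma 9.67e-08) at 22°C, 1.57 (1.1e-05) at 25°C, and 1.66 (9.73e-06) at 28°C. In mean TPM, ORA59 was 7.16-fold higher at 22°C, 3.13-fold at 25°C, and 3.36-fold at 28°C.

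The rise of ORA59 was smaller at the higher temperatures. The interaction of temperature and treatment in limma, which was called on the adjusted p alone, was -1.11 (95% interval -1.74 to -0.49, adjusted p 0.0282) for 25 against 22°C and -1.02 (-1.65 to -0.39, adjusted p 0.0274) for 28 against 22°C. ORA59 was the only member called for either, and 5.36 and 10.2% of all genes tested had a called interaction in the same direction. A further 4.37 and 6.92% had one in the other direction, so a single call among the tested members does not set them apart from all genes. Both interactions use the same 22°C samples. The calls rested on single samples, although the direction did not change. At 25°C the adjusted p in limma rose to 0.0637 without CK replicate 2 at 22°C, to 0.0629 without CK replicate 3 at 25°C, to 0.0685 without Si replicate 3 at 22°C, and to 0.072 and 0.0521 without Si replicate 1 or 2 at 25°C. At 28°C it rose to 0.0632, 0.0669, 0.0677, and 0.0709 in limma when the sample left out was CK replicate 2 (22°C), CK replicate 3 (28°C), Si replicate 3 (22°C), or Si replicate 1 (28°C).

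The smaller rise came from the Si samples. Within CK, ORA59 differed by 0.17 (adjusted p 0.642 in limma) between 25 and 22°C and by 0.08 (0.763) between 28 and 22°C on the log2 scale. Within Si it was lower by -0.94 at 25°C (adjusted p 0.00526) and by -0.93 at 28°C (0.00183), which is just inside the fold threshold, so that it was not called. The fall passed the threshold with median-of-ratios scaling, at -1.03 and -1.14, and at 28°C with quantile normalization, at -1.10. It also passed without Si replicate 1 at 22°C (-1.06 and -1.05), without Si replicate 3 at 25°C (-1.07), and without Si replicate 3 at 28°C (-1.02).

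ERF1, a target of EIN3 in the ET pathway that responds to both hormones, was not called between Si and CK at any temperature. In CK samples the level was 2.06, 3.81, and 6.84 TPM (22°C), 2.21, 2.90, and 8.33 TPM (25°C), or 1.3, 2.92, and 5.0 TPM (28°C). In Si samples the level was 5.57, 4.92, and 10.84 TPM (22°C), 2.53, 2.37, and 4.59 TPM (25°C), or 3.68, 4.75, and 4.89 TPM (28°C). CK and Si overlapped at each temperature. The log2 fold change was 0.67 (95% interval -0.26 to 1.59) at 22°C, -0.27 (-1.20 to 0.66) at 25°C, and 0.52 (-0.41 to 1.45) at 28°C, with adjusted p of 0.206, 0.609, and 0.331 in limma. A rise of the size seen for ORA59 at 22°C lies outside each of these intervals. Replicate 3 was the highest of its group in CK and in Si at all temperatures. Between 25 and 22°C within Si, the difference of ERF1 was -0.93 (95% interval -1.86 to -0.0017, adjusted p 0.134 in limma), and its interaction was -0.94 (-2.25 to 0.38, adjusted p 0.358), neither of which passed the test.

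**Figure D2:**
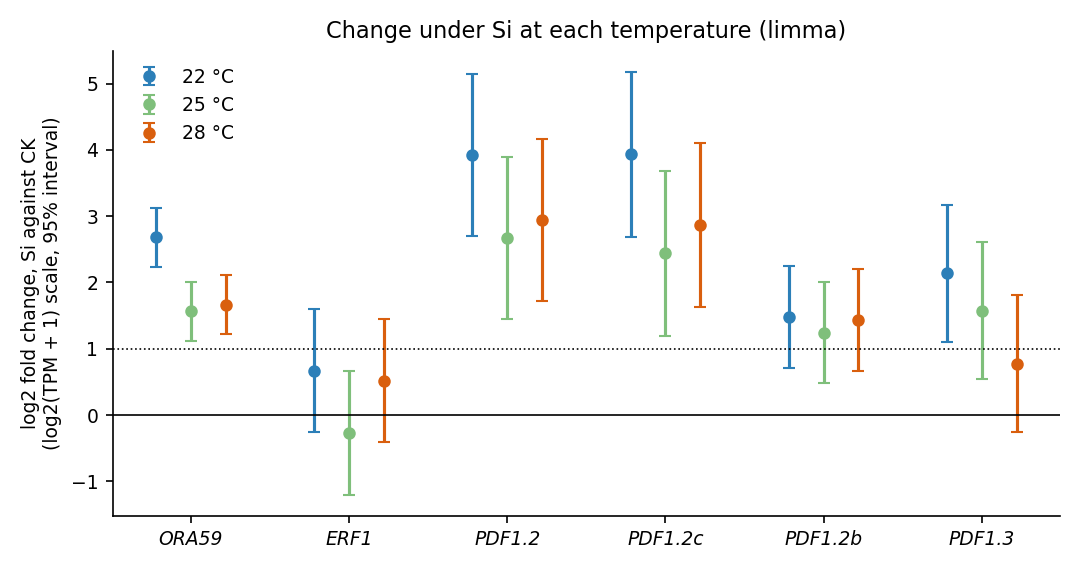
Log2 fold change of Si against CK on the log2(TPM + 1) scale for the 6 tested members at 22, 25, and 28°C, with points for the limma estimate and bars for the 95% interval. The dotted line is the threshold of 1. ORA59 dropped from 2.68 at 22°C to 1.57 and 1.66, PDF1.2 and PDF1.2c lie highest, and the intervals of ERF1 include 0 throughout.

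PDF1.2, the marker defensin, was among the members with the largest change. In CK samples the level was 1.45, 3.63, and 1.75 TPM (22°C), 3.28, 3.77, and 9.22 TPM (25°C), or 0.58, 1.32, and 10.96 TPM (28°C). In Si samples the level was 53.86, 48.95, and 38.46 TPM (22°C), 31.65, 31.21, and 49.78 TPM (25°C), or 15.81, 36.44, and 30.76 TPM (28°C). No CK sample reached the level of any Si sample. The log2 fold change was 3.92 ± 0.57 (SE, n = 3 per group) at 22°C, 2.67 at 25°C, and 2.94 at 28°C, with adjusted p of 3.71e-05, 0.000873, and 0.000499 in limma.

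PDF1.2c, its tandem neighbour, changed like PDF1.2 from a lower starting level. In CK samples the level was 0.48, 0.77, and 0.16 TPM (22°C), 1.15, 1.56, and 6.51 TPM (25°C), or 0.00, 0.65, and 5.16 TPM (28°C). In Si samples the level was 21.19, 23.83, and 18.70 TPM (22°C), 16.07, 13.16, and 26.22 TPM (25°C), or 8.23, 27.23, and 14.12 TPM (28°C). All Si samples again lay above all CK samples. The log2 fold change was 3.93 ± 0.58 (SE, n = 3 per group) at 22°C, 2.44 at 25°C, and 2.87 at 28°C (adjusted p 4.21e-05, 0.002, and 0.00071 in limma). In mean TPM the change at 22°C was from 0.47 to 21.24, and the pseudocount of 1 makes the log2 value understate such a change from a low level.

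PDF1.2b, on the other chromosome, had a higher level in CK and a smaller change. In CK samples the level was 5.43, 8.81, and 9.74 TPM (22°C), 10.37, 3.16, and 6.64 TPM (25°C), or 0.66, 1.61, and 3.72 TPM (28°C). In Si samples the level was 23.39, 26.97, and 20.49 TPM (22°C), 15.94, 17.83, and 14.01 TPM (25°C), or 7.39, 7.36, and 4.75 TPM (28°C). Si and CK did not overlap at any single temperature, but the Si samples at 28°C lay within the range of the CK samples at 22°C or under it. The log2 fold change was 1.48 ± 0.36 (SE, n = 3 per group) at 22°C, 1.24 at 25°C, and 1.43 at 28°C (adjusted p 0.00248, 0.00725, and 0.00331 in limma). At 25°C it fell under the fold threshold with median-of-ratios scaling (0.98), with quantile normalization (0.90), and without CK replicate 2 (0.85).

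PDF1.3, its tandem neighbour, was called at 22 and 25°C. In CK samples the level was 6.55, 9.28, and 10.75 TPM (22°C), 3.75, 5.15, and 9.53 TPM (25°C), or 0.26, 0.39, and 6.06 TPM (28°C). In Si samples the level was 37.64, 46.03, and 41.58 TPM (22°C), 16.40, 16.82, and 25.23 TPM (25°C), or 2.22, 2.83, and 4.01 TPM (28°C). At 28°C CK replicate 3 exceeded the Si samples, which in turn exceeded the other CK samples. The log2 fold change was 2.14 ± 0.49 (SE, n = 3 per group) at 22°C, 1.57 at 25°C, and 0.77 (95% interval -0.26 to 1.81) at 28°C, with adjusted p of 0.00155, 0.0109, and 0.19 in limma. Without CK replicate 3 the value at 28°C was 1.58 (adjusted p 0.000476), so that a single sample decided this call. At 25°C the adjusted p in limma was 0.0502 without CK replicate 1 and 0.0509 with a pseudocount of 0.1.

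PDF1.1, known in Arabidopsis as a seed defensin, was listed at 0 in 16 of 18 samples. It had 0.47 TPM in Si replicate 2 at 25°C and 0.26 TPM in Si replicate 1 at 28°C. No test was made and no fold can be given.

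CK samples numbered 3 often had the highest level of their group. This was so for 15 of the 18 sets of 3 CK samples that the 6 tested members and 3 temperatures give, and for 10 of the 18 Si sets. At 28°C, CK replicate 3 had 10.96 TPM of PDF1.2 compared with 0.58 and 1.32 TPM in the other samples. With all samples numbered 3 left out, in CK and Si alike, 5 members were called higher in Si at 22, 25, and 28°C, and ORA59 no longer had a called interaction (adjusted p 0.0536 and 0.062 in limma). With only the CK samples numbered 3 left out, 6, 5, and 5 were called, but these samples were picked for their high levels, which by itself widens the difference from Si.

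No interaction of a defensin passed the test or had an unadjusted p under 0.05 in limma, and the intervals were wide. For 28 against 22°C it was -0.98 (95% interval -2.70 to 0.75) for PDF1.2, -1.07 (-2.83 to 0.69) for PDF1.2c, -0.04 (-1.13 to 1.04) for PDF1.2b, and -1.36 (-2.83 to 0.10) for PDF1.3, with adjusted p between 0.193 and 0.966 in limma. For 25 against 22°C the values ran from -1.5 for PDF1.2c to -0.24 for PDF1.2b (adjusted p 0.265 to 0.81). A difference between temperatures as large as that of ORA59 was inside each of these intervals.

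Between 22 and 28°C, the calls of the defensins differed by locus, which is not in itself a test of the difference. The members on chromosome 2, PDF1.2b and PDF1.3, fell between 22 and 28°C in both CK and Si, and the members on chromosome 5, PDF1.2 and PDF1.2c, were not called in either. PDF1.2b changed by -1.68 in CK (95% interval -2.45 to -0.92, adjusted p 0.00136 in limma) and by -1.73 in Si (-2.49 to -0.96, 0.00109). PDF1.3 changed by -2.07 in CK (-3.10 to -1.03, 0.00268) and by -3.43 in Si (-4.47 to -2.40, 4.79e-05), the largest change with temperature of any member. In mean TPM, PDF1.3 was 13.8-fold lower in Si at 28 than at 22°C, and PDF1.2b 3.63-fold lower.

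On chromosome 5 the same comparison gave 0.16 (95% interval -1.06 to 1.39) in CK and -0.81 (-2.03 to 0.41) in Si for PDF1.2. For PDF1.2c it gave 0.58 (-0.66 to 1.82) and -0.49 (-1.73 to 0.76), with adjusted p from 0.256 to 0.834 in limma for both genes and treatments. In CK the sign turned to -0.72 for PDF1.2 and to -0.17 for PDF1.2c without CK replicate 3 at 28°C. PDF1.2 in Si had a mean of 47.09 TPM at 22°C and 27.67 TPM at 28°C. With all samples numbered 3 left out, its change in Si was -1.06 (adjusted p 0.0562 in limma), and that of PDF1.2c -0.54 (0.369). Not being called is thus no sign of an unchanged level. Of the 6 tested members, 2 were called lower at 28°C in CK and 2 in Si, where 0.649 and 1.37% of all genes tested were called lower. At 25 against 22°C none was called in CK or Si, where 0.145 and 1.32% of all genes were called lower. At an unadjusted p under 0.05 in limma, 1 member was higher in CK and 3 were lower in Si. Of these, ORA59 in Si missed only the fold threshold, with -0.94 (adjusted p 0.00526 in limma). PDF1.3 in Si passed the fold threshold but not the adjusted p, with -1.08 (-2.12 to -0.05, adjusted p 0.118 in limma).

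The ratio of PDF1.3 to PDF1.2 within a sample, which a scaling factor of the whole sample barely alters, fell step by step. As a log2 ratio of (TPM + 1), it was 1.62, 1.15, and 2.1 in CK at 22°C, 0.15, 0.37, and 0.04 at 25°C, and -0.33, -0.74, and -0.76 at 28°C. In Si it was -0.51, -0.09, and 0.11 at 22°C, -0.91, -0.85, and -0.95 at 25°C, and -2.38, -3.29, and -2.66 at 28°C. The temperatures did not overlap in either treatment, and CK replicate 3 at 28°C lay with the other CK samples. Between 28 and 22°C the ratio changed by -2.23 in CK and by -2.62 in Si.

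Such ratios were formed after these values had been seen, for 10 pairs of ORA59 and the 4 defensins in each treatment, 20 in all. Adjustment over the ratios does not correct for that choice, so their p-values are no separate evidence of a difference by locus. Each was tested by a two-sided exact permutation test of the difference between the highest and the lowest temperature. All 9 samples of a treatment were shuffled, those of the middle temperature included. The exact p thus asks whether all temperatures are alike, and is not a test of the highest against the lowest alone. A permutation of 3 samples against 3 cannot give a p under 0.1. The smallest p from the shuffle of 9 samples is 0.00119. Both PDF1.3 to PDF1.2 ratios reached it (0.00595 adjusted over the 20 ratios). So did PDF1.3 to PDF1.2c, with -2.65 in CK and -2.94 in Si (exact p 0.00119, adjusted 0.00595). PDF1.2b to PDF1.2 changed by -1.85 in CK (exact p 0.0238, adjusted 0.0476) and by -0.92 in Si (exact p 0.0619, adjusted 0.103). PDF1.2b to PDF1.2c changed by -2.26 in CK (exact p 0.0167, adjusted 0.0371) and by -1.24 in Si (exact p 0.0381, adjusted 0.0693), so that in Si no ratio of PDF1.2b to a chromosome 5 gene passed 0.05 after adjustment. PDF1.2c to PDF1.2, the ratio within the chromosome 5 pair, changed by 0.42 in CK and 0.32 in Si (exact p 0.123 and 0.11, adjusted 0.176 and 0.169).

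The pair on chromosome 2 was not uniform. PDF1.3 to PDF1.2b changed by -0.38 in CK (exact p 0.496, adjusted 0.551) and by -1.70 in Si (exact p 0.00476, adjusted 0.0159), so that PDF1.3 fell further than its neighbour in the Si samples. With a pseudocount of 0.1 the changes were -0.89 in CK and -1.92 in Si. Whether CK and Si differ in this ratio was not tested. Relative to ORA59, PDF1.3 fell in both treatments, by -2.15 in CK and -2.50 in Si (exact p 0.00476 and 0.00595, adjusted 0.0159 and 0.017). PDF1.2 to ORA59 changed by 0.08 and 0.12 (exact p 0.907 and 0.756). With a pseudocount of 0.1 the ratios of PDF1.2b to PDF1.2 and PDF1.2c in CK had adjusted exact p of 0.0556 and 0.111, and the PDF1.3 ratios named here kept their side of 0.05.

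**Figure D3:**
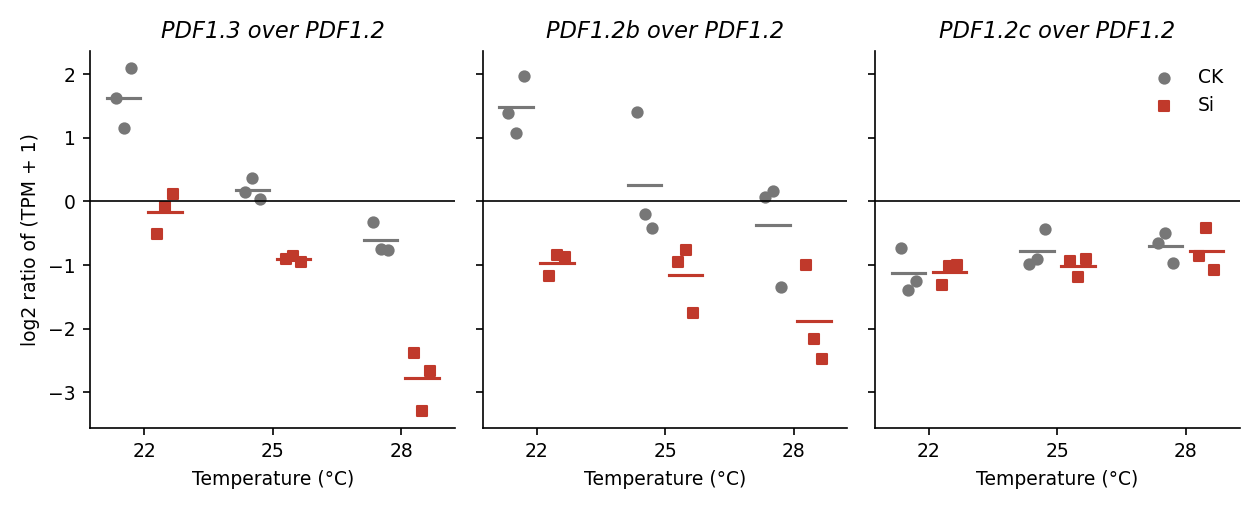
Log2 ratio of (TPM + 1) between 2 defensins in each sample, against temperature, with grey circles for CK, red squares for Si, and bars for the means of 3 samples. PDF1.3 over PDF1.2 falls from 1.62 and -0.16 (means of CK and Si at 22°C) to -0.61 and -2.78 at 28°C, while PDF1.2c over PDF1.2 keeps within -1.39 and -0.41.

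The makeup of the defensin RNA differed between temperatures. PDF1.3 was 27.7, 31.6, and 34.9% of the summed TPM of the 4 defensins in Si at 22°C, 20.5, 21.3, and 21.9% at 25°C, and 6.60, 3.83, and 7.48% at 28°C. PDF1.2 had 35.1 ± 3.90%, 40.7 ± 2.13%, and 51.2 ± 5.44% (SD, n = 3 each) of that sum in Si at 22, 25, and 28°C, without overlap between 22 and 28°C. In CK, PDF1.3 made up 45.5 ± 3.65% (22°C), 29.3 ± 8.79% (25°C), and 16.9 ± 6.80% (28°C). The sum itself was 119.23 to 145.78 TPM in Si at 22°C, 79.02 to 115.24 TPM at 25°C, and 33.65 to 73.86 TPM at 28°C, compared with 13.91 to 22.49, 13.64 to 31.90, and 1.5 to 25.90 TPM in CK. Shares of 1 sum are not independent of each other, and no test was made on them.

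**Figure D4:**
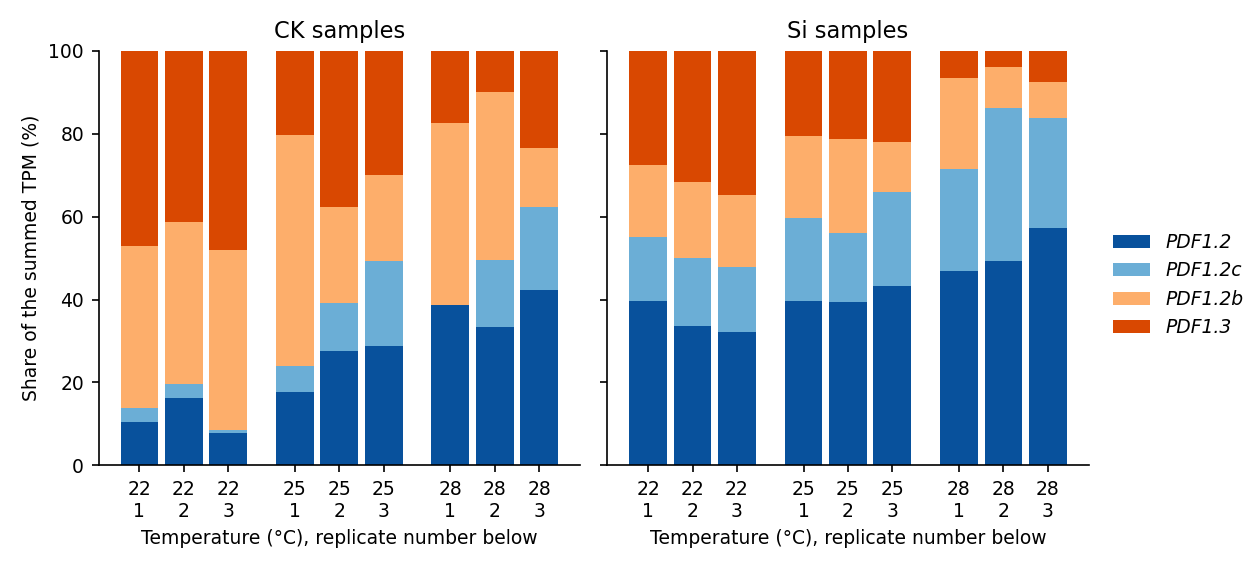
Share of PDF1.2, PDF1.2c, PDF1.2b, and PDF1.3 in their summed TPM, in percent, for each CK sample and each Si sample. Blue tones are the chromosome 5 pair and orange tones the chromosome 2 pair. In Si, PDF1.3 has 27.7 to 34.9% at 22°C and 3.83 to 7.48% at 28°C.

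Treatment shifted the balance of the loci as well. In CK at 22°C, PDF1.2b and PDF1.3 made up 40.6 ± 2.53% and 45.5 ± 3.65% of the sum, and PDF1.2 and PDF1.2c 11.5 ± 4.26% and 2.53 ± 1.57% (SD, n = 3). In Si at 22°C the same shares were 17.6 ± 0.76%, 31.4 ± 3.61%, 35.1 ± 3.90%, and 15.9 ± 0.42%, and no share overlapped between the treatments. At 22°C the chromosome 2 pair was thus the larger part in CK, and the pairs were close to even in Si.

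Over all 18 samples, the profiles of the members paired by locus too. Likeness was measured as the root mean square difference of log2(TPM + 1) after each gene was centred on its own mean, where 0 is an identical shape. PDF1.2 and PDF1.2c had the smallest value of the 15 pairs (0.28), and PDF1.2b and PDF1.3 the next (0.72). ORA59 was about as far from PDF1.2b (0.81) as from PDF1.2c (0.85) and PDF1.2 (0.86), and PDF1.2 and PDF1.3, in spite of 91.4% identity in their coding parts, were 1.35 apart. The tandem pairs are also those with the longest identical runs in their transcripts (52 and 72 bases), and the part of shared reads in this likeness was not tested.

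The presence of the GCC box letters did not sort the defensins in the same way. Of the 4, those with a match (PDF1.2 and PDF1.2b) and those without (PDF1.2c and PDF1.3) were all called higher in Si at 22°C. In either class, 1 member fell with temperature and 1 was not called. ERF1, which had no match in either window, was not called between Si and CK at any temperature. PDF1.2c and PDF1.3 had no match either and were called at 22 and 25°C. A link between the letters and the calls was not tested.

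Other genes of the pathway were taken from 7 lists with 57 genes, and the counts of called genes are to be read against the shares of all genes given above. For counts at an unadjusted p, no such share of all genes was formed. Of 10 other PDF defensins, PDF1.4 and PDF1.5 among them, 6 were tested, none was called at 22°C (2 higher and 1 lower at an unadjusted p under 0.05 in limma), and 1 was called higher at 25 and at 28°C. The largest change at 22°C was that of PDF1.5, at -0.98 (adjusted p 0.0098 in limma), under the fold threshold. PDF2.3 was the one called, with 1.23 at 25°C and 1.0 at 28°C, and it is named after its values were seen. The median log2 fold change of this list was 0.12, 0.30, and 0.21, compared with 0.26, 0.26, and 0.22 for all genes.

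Of 6 other defence proteins, in a list drawn up for JA and ET, 5 were tested, and 3, 3, and 4 were called higher at 22, 25, and 28°C, with medians of 1.36, 1.84, and 1.88. Whether each responds to JA or ET was not tested here, so the counts are no readout of these hormones alone. None was called lower, but 0, 1, and 1 were lower at an unadjusted p under 0.05 in limma. The lower one, named after its values were seen, was THI2.2. It had -0.56 at 25°C and -0.73 at 28°C (adjusted p 0.0661 and 0.0229 in limma). PR4, which binds chitin, rose by 1.62, 1.84, and 2.03 on the log2 scale, and PR3, a chitinase, by 1.54, 3.08, and 3.63. PR5, a thaumatin-like protein that responds to salicylic acid, rose by 1.36, 2.43, and 1.88 (all adjusted p at most 0.00408 in limma). The mean level of PR3 in Si was 7.55 TPM at 22°C, 25.5 TPM at 25°C, and 50 TPM at 28°C. PR3, PR4, and PR5 thus had their highest mean level in Si at 28°C, and the 4 PDF1 defensins their lowest Si level.

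Genes upstream of ORA59 in the ET pathway had small changes, under the fold threshold. Of 11 genes for ET receptors, CTR1, EIN2, EIN3, EIL1, and the F-box proteins EBF1 and EBF2, none was called between Si and CK at any temperature. The medians were 0.19, -0.13, and 0.23, compared with 0.26, 0.26, and 0.22 for all genes tested. Of the 11 genes, 4, 2, and 6 were higher and 1, 3, and 1 lower in Si at an unadjusted p under 0.05 in limma. The largest change at 22°C was that of the receptor gene EIN4, at 0.55 (adjusted p 0.000617 in limma). The JA receptor gene COI1 and MED25, a Mediator subunit that works with ORA59, were not called either, and both were higher at 22°C at an unadjusted p under 0.05 in limma. COI1 had the larger value there, 0.24, which is under the median of 0.26 for all genes tested, so neither rose beyond the general shift.

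Group IX ERFs, the subfamily of ORA59 and ERF1, were called mostly at 22°C. Of 11, 7 were tested, and 5, 1, and 1 were called higher at 22, 25, and 28°C, with medians of 1.86, -0.35, and 0.02. ERF2 changed by 3.09, ERF6 by 2.54, and ERF5 by 2.07 at 22°C (adjusted p 0.000202, 0.00667, and 0.00763 in limma), and none of these was called at 25 or 28°C. For the interaction, 2 of 7 were called lower at 25 and 1 at 28 relative to 22°C. ERF15 was the member called at each temperature, with 1.31, 1.89, and 1.74, and is named after its values were seen.

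In the MYC branch, all 8 genes were tested, and 4, 1, and 0 were called higher and 0, 1, and 2 lower at 22, 25, and 28°C, with medians of 1.01, -0.11, and -0.02. MYC2, which holds back the ERF branch, had 3.24 at 22°C (adjusted p 0.000331 in limma), -0.14 at 25°C, and -0.06 at 28°C. NAC055 had 1.29 and LOX2, a JA synthesis gene, 1.18 at 22°C (adjusted p 0.0498 and 0.0203). Of 9 genes that repress ORA59 or PDF1.2 or act with such repressors, 8 were tested, and 3, 2, and 3 were called higher, with medians of 0.22, 0.31, and 0.46. They were led at 22°C by the glutaredoxin gene GRX480 (2.11), WRKY70 (1.88), and ERF4 (1.52), with adjusted p of 0.00417, 0.0166, and 2.81e-06. The list also holds TGA2, TGA5, and TGA6, class II TGA factors that are also needed for activation of PDF1.2 and that repress it together with partners such as GRX480.

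Outside the lists, the gene closest to ORA59 over the 18 samples was APS3 (AT4G14680), which encodes an ATP sulfurylase of sulfate assimilation, with a likeness of 0.25. Its mean level was 3.68, 4.50, and 5.68 TPM in CK and 38.6, 17.3, and 19.5 TPM in Si at 22, 25, and 28°C. AT1G04770 (0.31), AT5G54710 (0.33), EDA39 (AT4G33050, 0.34), and AT1G15125 (0.34) came next. Around PDF1.2 no gene outside the family was as close. APR1 (AT4G04610), an APS reductase of the same sulfate pathway, was at 0.74, with mean levels of 6.98, 8.42, and 12.2 TPM in CK and 79.2, 71.4, and 78.7 TPM in Si. AT2G43590 and SUFE2 (AT1G67810) were at 0.81, and MSTRG.13641, an assembled transcript with no name, and AT5G38900 at 0.82. These values describe 18 samples that share their groups.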

How the data were processed

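Shoot RNA from 6 groups of 3 Col-0 samples had been sequenced. The authors deposited 1 table of TPM values per gene, with the gene length. The study's methods name TAIR10 as the genome and RSEM for quantification, whereas the protocol in the labels names HISAT2 and StringTie, all without versions. TPM keeps no depth, so precision rests on the spread between the 3 samples per group, pooled over the 6 groups. The study tested read counts, which the table does not hold. Here log2(TPM + 1) was taken, and the 20044 genes that reached 1 TPM in 3 samples or more were kept. Then limma 3.58.1 in R 4.3.3 was fitted to 6 group means (12 residual degrees of freedom, intensity trend), with Benjamini-Hochberg adjustment over all genes tested in each of 9 comparisons, and was tested on simulated data. Ratios of members were permuted over the 1680 arrangements of 9 samples. Sequences came from RefSeq TAIR10.1 and were aligned with Biopython 1.88. The transcript lengths of the members there match the gene lengths of the table. Chromosome lengths were compared only between the annotation and the sequence of that assembly. Figures were drawn with matplotlib 3.10.9.

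The members and lists were chosen with earlier results of these data known. Named are the 7 members, up to 3 called genes per list with the largest change at 22°C (or the single largest if none was called), and the 5 genes closest to ORA59 and to PDF1.2. The ratios, the longer motif window, and the fits without the CK samples or all samples numbered 3 were added after the values were seen. Alternatives were pseudocounts of 0.1 and 0.5, no filter or a filter at 5 TPM, scaling by median-of-ratios factors or by quantile normalization, a block for the replicate number, only the groups compared, no fold threshold, and each sample left out in turn.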

Additional observations from a re-analysis of the deposited data

Results flagged for a closer look

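The change of ORA59 under Si differed between temperatures by a test of the difference itself. The interaction in limma was -1.11 for 25 against 22°C (adjusted p 0.0282) and -1.02 for 28 against 22°C (adjusted p 0.0274), on the log2(TPM + 1) scale. Both values share the 22°C samples, and each lost its call when any of several single samples was left out. Of all genes tested, 5.36 and 10.2% had a called interaction in the same direction, and 4.37 and 6.92% in the other.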

How the results depend on the processing

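Of the 54 changes of the tested members, those without a filter and with a filter at 5 TPM kept direction and call. At 25 against 22°C within Si, 1 member was called instead of 0 with median-of-ratios scaling (ORA59), with the replicate block, with only the groups compared, and with the CK samples or all samples numbered 3 left out (PDF1.3), and with no fold threshold (ORA59). With all samples numbered 3 left out, 0 members instead of 1 had a called interaction at 25°C and 0 at 28°C. Some signs turned. The interaction of PDF1.2b at 28°C became 0.34 and 0.12 with pseudocounts of 0.1 and 0.5, 0.017 with median-of-ratios scaling, 0.20 without the CK samples numbered 3, and 0.29 with all samples numbered 3 left out, when the interaction of ERF1 became 0.088. The change of ERF1 between 25 and 22°C in CK became -0.0016 with a pseudocount of 0.1, -0.077 with median-of-ratios scaling, -0.10 with quantile normalization, and -0.12 without the CK samples numbered 3. That of PDF1.2 between 28 and 22°C in CK became -7e-04, -0.028, -0.19, and -0.81 under the same settings. That of ORA59 became -0.16 with median-of-ratios scaling, -0.20 with quantile normalization, and -0.072 without the CK samples numbered 3. Without those samples PDF1.2c also turned to -0.33 between 28 and 22°C in CK, ERF1 to 0.20 between Si and CK at 25°C, and PDF1.2 to 0.003 for the interaction at 28°C. With all samples numbered 3 left out these values within CK were the same, since they rest on the same samples. The CK samples numbered 3 were picked for their high levels, so fits without them alone are not a balanced comparison. Why these signs turned was not tested.

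Leaving out each sample in turn gave 0 to 1 members called for either interaction and for 25 against 22°C within Si. Signs turned within the ranges -0.62 to 0.10 (PDF1.2b) for the interaction at 25°C and -0.51 to 0.19 (ERF1) and -0.40 to 0.35 (PDF1.2b) at 28°C. They turned within -0.028 to 0.34 (ORA59), -0.46 to 0.35 (ERF1), and -0.64 to 0.086 (PDF1.2b) for 25 against 22°C in CK, and within -0.11 to 0.23 (ORA59), -0.72 to 0.74 (PDF1.2), and -0.17 to 1.14 (PDF1.2c) for 28 against 22°C. For ERF1 between Si and CK at 25°C the range was -0.57 to 0.20.

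The labels do not say whether samples with the same replicate number were paired. Deviations of same-numbered samples from their group means correlated over 0.1 in 8 of 45 pairs (-0.07 to 0.18, median 0.05). This compares with 0 of 90 pairs with different numbers (median -0.02), so weak shared structure by number was present. With the replicate number as a block, 1 of the 54 calls of members changed, that of PDF1.3 between 25 and 22°C in Si (-1.08, adjusted p 0.0399 in limma). ERF1 at 22°C (0.67) had an adjusted p of 0.0201 in limma with the block and 0.206 without it, but stayed under the fold threshold. Between 25 and 22°C in Si, ERF1 (-0.93) had 0.00907 in limma with the block and 0.134 without it, also under that threshold. The interactions of ORA59 at 25 and 28°C had adjusted p of 0.00219 and 0.00243 in limma with the block. Without it they had 0.0282 and 0.0274, and there they lost their call when any of several single samples was left out. The genes called over all tested moved from 1950 to 2369 for the interaction at 25°C, the largest such move. Depth is unknown in TPM, so low values such as those of PDF1.2c in CK carry an uncertainty that cannot be given.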
